A study of Rattus norvegicus with 54 samples.

Results

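The genes described here are 9 markers of astrocytes and radial glia, taken from the count table by Ensembl identifier and kept because each was listed on the stated chromosome. All 9 were found among the 30560 genes of the table, and all 9 passed the low-count filter that left 17172 genes for testing. RNA came from cultures of cortex cells of rat embryos at stage e18, labelled as neurons, and was sequenced as stranded mRNA libraries. The 54 libraries fall into 18 groups of 3. A group is defined by the construct (untransfected cultures, a GFP virus, or a virus carrying rMBD3 with GFP), by the medium (standard medium with magnesium, or medium lacking magnesium, the epileptiform condition of the labels) and by the time (2, 6 or 24 h, which the design text counts from the induction of epileptiform activity). Both viruses were adeno-associated viruses (AAV) whose insert was driven by the SYN promoter, used to express genes in neurons, so the GFP cultures share the virus, the promoter and GFP with the rMBD3 cultures. Rat Mbd3, the gene the second virus was meant to overexpress, encodes a methyl-CpG-binding domain protein of the NuRD chromatin complex. The 3 libraries of a group carry replicate numbers 1, 2 and 3, which the labels give as the number of the cell culture, and the same numbers run through all 18 groups. Nothing in the labels says whether cultures of 1 number came from the same animals, and p-values measure the spread between these libraries only.

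Astrocytes clear glutamate and potassium from around synapses and are joined to each other by gap junctions. Radial glia are the progenitors of the embryonic cortex, give rise to neurons and later to astrocytes, and already carry several astrocyte genes. Cultures of embryonic cortex prepared for neurons usually hold some of these cells. Among the 9 genes, Vim, Nes and Gfap encode the intermediate filament proteins vimentin, nestin and glial fibrillary acidic protein; Vim and Nes are typical of radial glia and other immature cells, Gfap of astrocytes. Slc1a2 and Slc1a3 encode the glial glutamate transporters GLT-1 and GLAST, and Glul encodes glutamine synthetase, which turns the glutamate taken up into glutamine. Aqp4 encodes the water channel of astrocyte membranes, Gja1 the gap junction protein connexin 43, and S100b a small calcium-binding protein.

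Short stretches of sequence are shown to give the start regions of genes whose levels moved in different ways below: S100b and Gfap, which were high in all or nearly all libraries of replicate 1, and Vim, which was not. Each is the 250 bases before the annotated start, printed 5′ to 3′ on the strand of the gene, from RefSeq on assembly GRCr8, while gene positions further on come from the deposited counts file and its build, mRatBN7.2. S100b is at chr20:12381082-12381331 on the minus strand, Gfap at chr10:88361662-88361911 on the minus strand, and Vim at chr17:81577011-81577260 on the plus strand. Capitals mark matches, on either strand, to 4 motifs: the TATA box (TATAAA), the CCAAT box (CCAAT), the NFI core motif (TTGGC) and the STAT site (TTCNNNGAA). A CCAAT box read on the other strand (ATTGG) overlaps an NFI core motif wherever a C follows it.
S100b: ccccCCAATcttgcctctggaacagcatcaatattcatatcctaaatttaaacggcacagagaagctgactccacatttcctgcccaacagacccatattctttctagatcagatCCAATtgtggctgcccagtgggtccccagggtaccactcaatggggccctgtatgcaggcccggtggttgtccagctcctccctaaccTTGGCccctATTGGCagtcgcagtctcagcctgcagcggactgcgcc
Gfap: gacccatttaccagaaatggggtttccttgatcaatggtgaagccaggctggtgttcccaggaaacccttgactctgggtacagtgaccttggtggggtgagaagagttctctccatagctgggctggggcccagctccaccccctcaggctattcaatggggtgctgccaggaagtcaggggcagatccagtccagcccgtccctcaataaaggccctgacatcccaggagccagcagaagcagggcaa
Vim: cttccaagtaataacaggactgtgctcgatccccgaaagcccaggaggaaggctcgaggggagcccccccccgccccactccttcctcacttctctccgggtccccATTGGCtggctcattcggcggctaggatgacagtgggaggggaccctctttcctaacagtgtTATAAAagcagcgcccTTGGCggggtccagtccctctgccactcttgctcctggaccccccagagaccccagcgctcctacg

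The 3 sequences differ in these letters. The Gfap window held no match to any of the 4 motifs, the S100b window held 3 CCAAT boxes and 2 NFI core motifs, and the Vim window held 1 TATA box, 1 CCAAT box and 2 NFI core motifs. Windows were found for all 9 genes, 14 in all because some have several annotated starts. A gene was counted if any of its windows matched, while the shares beside the counts are of single windows. Genes with several windows thus had more chances to match. A TATA box was present in 1 gene (Vim), against 12.9% of all 33469 windows of this length. A CCAAT box was present in 4 genes (Aqp4, Glul, S100b, Vim; 34.02% of all windows) and an NFI core motif in 5 (Glul, S100b, Slc1a2, Slc1a3, Vim; 40.3%). A STAT site was present in 0 genes, against 7.67% of all windows. These are matches of letters and say nothing about whether a factor was bound.

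All 9 genes were detected in every library, at levels that differed widely. Total counts ran from 14448927 to 39691105 per library (median 26121007), so that 3 counts, the least taken as a level, correspond to 0.0756 to 0.208 CPM (counts scaled to the library total); the lowest count of any of the 9 genes in any library was 47 (Aqp4). Together the 9 genes took 0.153% to 1.22% of a library's counts, with a median of 0.586%. Compared per length, in TPM (counts per exon length, scaled to a common sum), computed from the deposited counts and exon lengths, Vim was the most abundant at a median of 2459 TPM (466 to 6481), at rank 22 of the 17172 genes tested. Nes followed at a median of 527 TPM (87.5 to 1576) and Gfap at 517 TPM (74.7 to 3433). Then came Slc1a3 at 259 TPM (71.8 to 824), Glul at 191 TPM (90.7 to 878) and S100b at 184 TPM (37.5 to 1120.1). The lowest were Slc1a2 at 121 TPM (25.9 to 417), Gja1 at 74.2 TPM (20.6 to 259.8) and Aqp4 at 17.3 TPM (1.38 to 129). Within libraries this order was firm at its ends: Vim was above Nes in 54 of 54 libraries and Gja1 above Aqp4 in 50. In the middle it was not, since Nes was above Gfap in 29 of 54 libraries and Glul above S100b in 24, so neither pair of neighbours can be ordered. In bulk RNA, fewer cells of a type and less RNA per cell cannot be told apart. Other markers of astrocytes, and those of neurons and other cell types, were not analysed here, because the count table gives no gene symbols, so the label of the cells as neurons was not checked against neuronal genes.

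**Figure D1:**
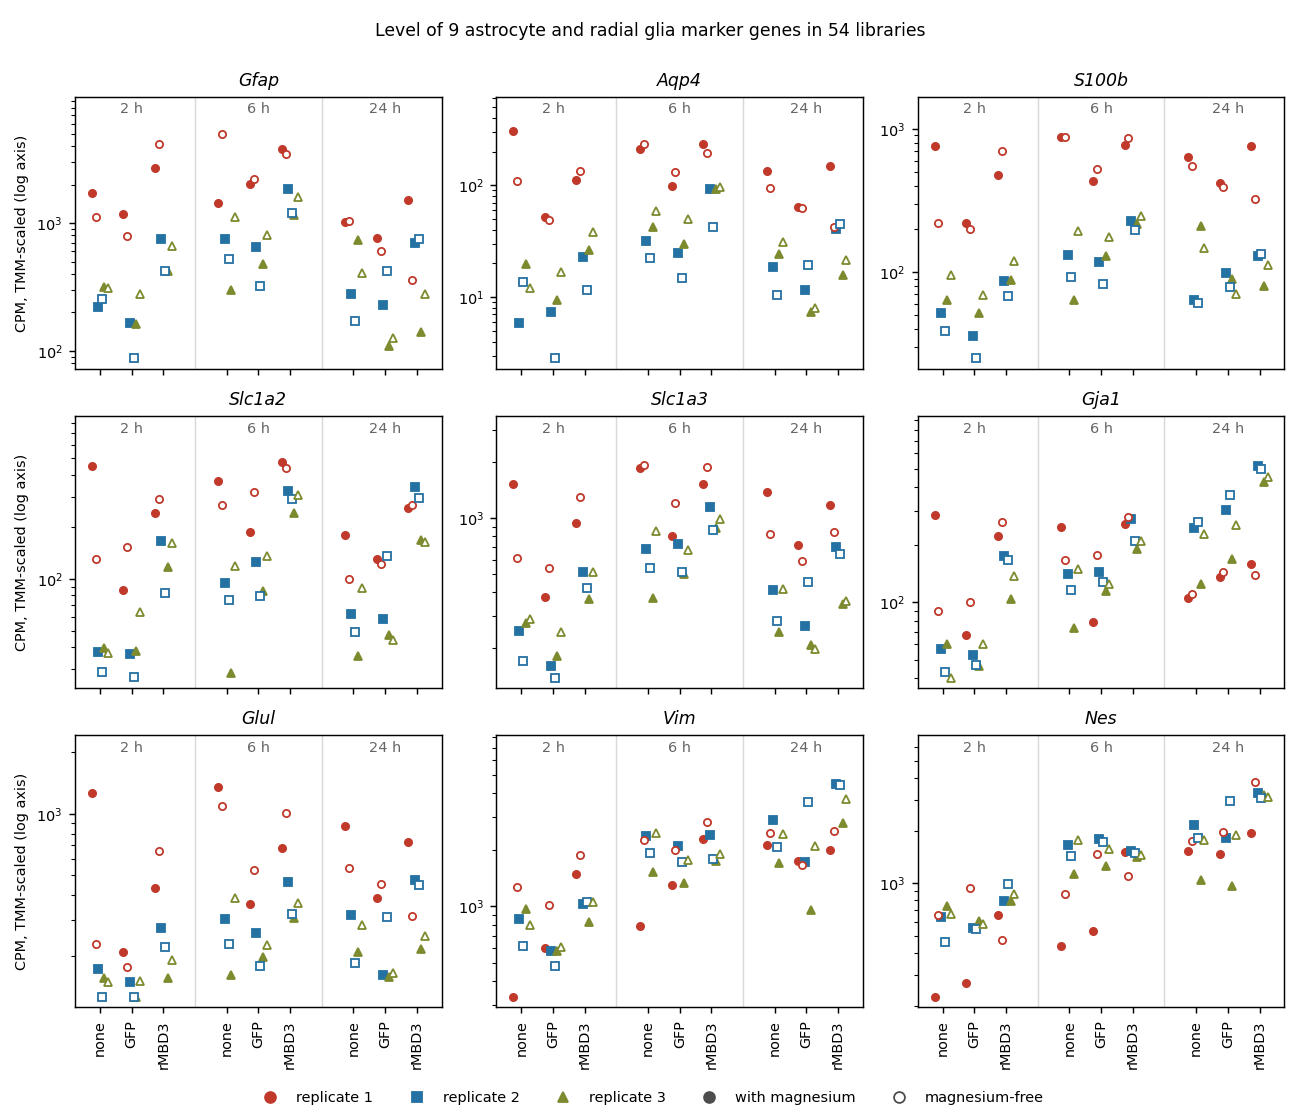
TMM-scaled CPM (log axis) of each of the 9 genes in all 54 libraries, by construct within 2, 6 and 24 h; colour and shape give the replicate number, and open symbols the magnesium-free medium. Replicate 1 lies above the other libraries of its group for S100b in all 18 groups, while Vim and Nes climb from 2 to 24 h in all 3 replicate numbers.

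The libraries of replicate 1 stood apart in 6 of the 9 genes, and they are described first because every later comparison includes them. The cultures numbered 1 had far more S100b, Aqp4 and Gfap, and more Slc1a2, Slc1a3 and Glul, than those numbered 2 and 3, in all 3 constructs and both media. Values from here on are CPM scaled by trimmed mean of M-values (TMM) factors. S100b (ENSRNOG00000001295, chromosome 20, 12372881 to 12394743) ran from 198 to 873 CPM in replicate 1 (median 535), from 25.1 to 228 in replicate 2 (median 84.2) and from 52.1 to 245 in replicate 3 (median 104). Replicate 1 was the highest of the 3 libraries in 18 of 18 groups. In untransfected cultures with magnesium at 6 h, for example, S100b was at 871, 132 and 64.1 CPM in replicates 1, 2 and 3. Aqp4 (ENSRNOG00000016043, chromosome 18, 6507903 to 6524856) had medians of 122, 19.01 and 25.3 CPM in replicates 1, 2 and 3, and replicate 1 was highest in 17 of 18 groups. Its lowest value in replicate 1 was 42.6 CPM, above the medians of both other numbers but inside their ranges, which reached 92.7 and 96.4. Gfap (ENSRNOG00000002919, chromosome 10, 87852890 to 87861589) ran from 356 to 4976 CPM in replicate 1 (median 1484), from 88.0 to 1857 in replicate 2 (median 421) and from 109.6 to 1600.4 in replicate 3 (median 362).

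The glutamate genes also had their highest medians in replicate 1, with a smaller gap. Medians in replicates 1, 2 and 3 were 1060.3, 483 and 364 CPM for Slc1a3 (ENSRNOG00000016163, chromosome 2, 57755497 to 57830605), where replicate 1 was highest in 18 of 18 groups. For Glul (ENSRNOG00000049560, chromosome 13, 66025630 to 66035108) they were 535, 245 and 195 CPM, with replicate 1 highest in 17 groups. For Slc1a2 (ENSRNOG00000005479, chromosome 3, 89005129 to 89126498) they were 249, 81.3 and 87.0 CPM, with replicate 1 highest in 15 groups. The filament genes of radial glia did not follow: Vim (ENSRNOG00000018087, chromosome 17, 76668647 to 76677187) had medians of 1811, 1847 and 1612 CPM, and Nes (ENSRNOG00000018681, chromosome 2, 173438734 to 173447777) of 1021, 1586 and 1193 CPM.

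Tested as differences among the 3 replicate numbers, with edgeR's quasi-likelihood test and Benjamini-Hochberg adjustment over all genes tested, 7 of the 9 genes passed the threshold of 0.05, against 48.5% of all genes. Gja1 (adjusted p = 0.289) and Vim (adjusted p = 0.365) did not. As a single contrast chosen after seeing the data, replicate 1 against the mean of replicates 2 and 3, 6 genes were higher (25.3% of all genes) and 1 was lower (26.1% of all genes). The log2 differences (± SE) were 2.39 ± 0.20 for Aqp4, 2.38 ± 0.14 for S100b, 1.91 ± 0.20 for Gfap, 1.33 ± 0.19 for Slc1a2, 1.33 ± 0.12 for Slc1a3 and 1.30 ± 0.14 for Glul, with adjusted p-values from 5.07e-16 (S100b) to 2.94e-07 (Slc1a2). Nes was the gene that was lower, by a log2 difference of -0.40 ± 0.13 (adjusted p = 0.00789). A batch of library preparation or sequencing is not given in the labels, so culture and batch cannot be told apart here.

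Gja1, the connexin 43 gene (ENSRNOG00000000805, chromosome 20, 35755991 to 35768582), changed side with time. At 2 h it ran from 67.0 to 284 CPM in replicate 1 (median 161), from 42.8 to 174 in replicate 2 (median 54.8) and from 40.2 to 138 in replicate 3 (median 60.4), and replicate 1 was the highest library in 6 of 6 groups. At 24 h it ran from 104.9 to 157 CPM in replicate 1 (median 137), from 245 to 518 in replicate 2 (median 333) and from 124 to 450.1 in replicate 3 (median 240.4), and replicate 1 was the lowest library in 6 of 6 groups. The median of replicate 1 was thus lower at 24 h than at 2 h, where those of both other numbers were higher, and at 24 h the range of replicate 1 lay wholly below that of replicate 2.

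Fitted within time points, the difference of replicate 1 in Gja1 was 1.11 ± 0.19 (log2, SE) at 2 h, 0.39 ± 0.18 at 6 h and -1.15 ± 0.15 at 24 h (adjusted p = 0.000459, 0.0809 and 0.000109, edgeR). The change of this difference from 2 to 24 h was -2.24 ± 0.27 (adjusted p = 1.01e-07), and Gja1 was the 1 member of 9 that passed this test, against 34.8% of all genes. For the 6 genes high in replicate 1 the change was -1.12 ± 0.47 for Gfap, -1.03 ± 0.43 for Slc1a2 and -0.82 ± 0.45 for Aqp4, and between -0.36 and -0.22 for S100b, Slc1a3 and Glul, all short of the threshold. Within each time point those 6 genes were all higher in replicate 1. With Gja1, 7 of 9 were higher at 2 h (20.4% of all genes tested there). At 6 h, 6 of 9 were higher (24.3%) and Nes was lower (22.5%). At 24 h, 6 of 9 were higher (18.2%) and Gja1 was lower (16%).

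**Figure D2:**
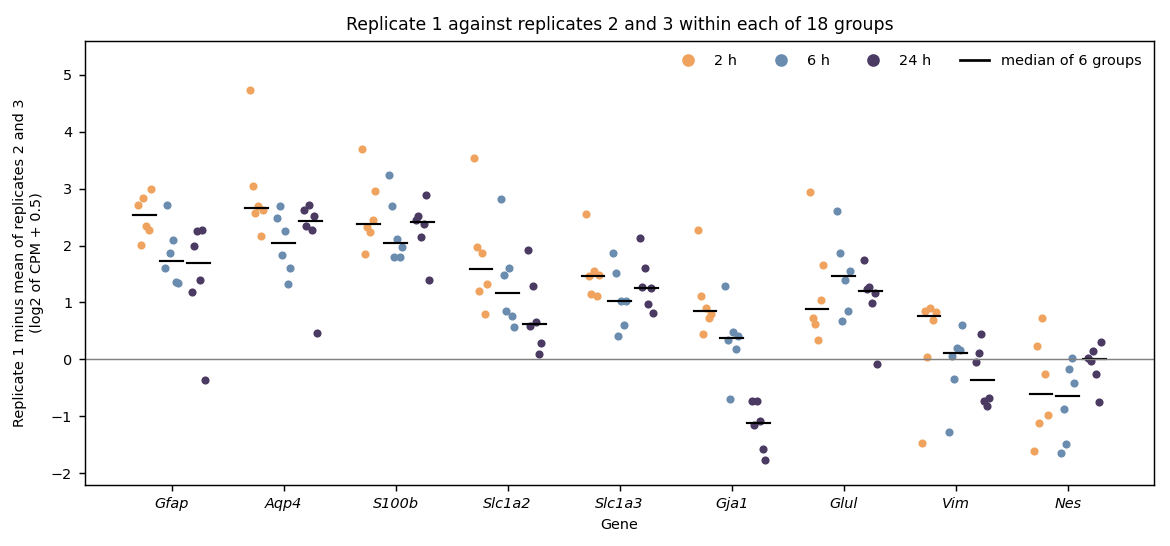
For each gene, the log2(CPM + 0.5) of replicate 1 minus the mean of replicates 2 and 3 in each of the 18 groups (points, 6 per time point, coloured by time) and the median of 6 groups (bars). Gfap, Aqp4, S100b, Slc1a2, Slc1a3 and Glul lie above 0 in nearly all groups, and the Gja1 points fall from above 0 in 6 of 6 groups at 2 h to below 0 in 6 of 6 at 24 h.

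Between 2 and 6 h all 9 genes had positive changes. The filament genes Vim and Nes, the transporters Slc1a2 and Slc1a3, and Glul and Gja1 rose. Vim went from 330.2 to 1886 CPM at 2 h (median 837) to 786 to 2822 CPM at 6 h (median 1911), and Nes from 225 to 992 CPM (median 649.8) to 439 to 1794 CPM (median 1459). Both were higher at 6 h in 18 of 18 series, a series being the libraries of 1 construct, medium and replicate number. The fitted log2 changes were 1.15 ± 0.15 for Vim (adjusted p = 4.22e-08) and 1.08 ± 0.16 for Nes (adjusted p = 4.13e-07). Slc1a3 rose from a median of 374 CPM (139 to 1523) to 861 CPM (372 to 1944), higher in 18 of 18 series, with a log2 change of 1.12 ± 0.29 (adjusted p = 0.00135). Slc1a2 rose by 0.92 ± 0.32 (adjusted p = 0.0171), Glul by 0.86 ± 0.29 (adjusted p = 0.0132) and Gja1 by 0.73 ± 0.21 (adjusted p = 0.00393).

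In all, 6 of 9 genes were higher at 6 h, against 22.2% of all genes, and 0 were lower. The other genes had changes of like size that missed the threshold: 0.96 ± 0.43 for Gfap (adjusted p = 0.058), 0.99 ± 0.50 for Aqp4 (adjusted p = 0.102) and 1.00 ± 0.48 for S100b (adjusted p = 0.0807), although S100b was higher at 6 h in 18 of 18 series. With the replicate number as a block all 9 passed (24.2% of all genes higher), and without replicate 1 all 9 passed as well (28.8%), with log2 changes of 0.81 to 1.71. Leaving out replicate 2 or replicate 3 instead, only Slc1a3, Vim and Nes passed, 3 of 9 in either case (14.1% and 12.5% of all genes higher). The calls of Slc1a2 (adjusted p = 0.138 and 0.103), Glul (0.0795 and 0.067) and Gja1 (0.087 and 0.113) were lost there. The median log2 change of the 9 genes was 0.99, and that of all genes tested was -0.02.

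From 6 to 24 h changes went in both directions. Gfap and Slc1a3 fell, and Nes, Gja1 and Vim rose, but among these 5 genes only the calls of Gfap and Nes held in all 8 alternative fits. Gfap dropped from a median of 1179 CPM (300.0 to 4976) to 415 CPM (109.6 to 1523), was lower at 24 h in 16 of 18 series and had a log2 change of -1.52 ± 0.43 (adjusted p = 0.00333). Slc1a3 dropped from a median of 861 CPM to 435 CPM (198 to 1386), was lower in 18 of 18 series and changed by -0.85 ± 0.29 (adjusted p = 0.0132). Nes rose from a median of 1459 CPM to 1909.9 CPM (958 to 3796), in 15 of 18 series, by 0.65 ± 0.16 (adjusted p = 0.000724). Gja1 rose from a median of 157 CPM (73.1 to 279) to 236 CPM (104.9 to 518), in 13 of 18 series, by 0.57 ± 0.21 (adjusted p = 0.0236). Vim rose by 0.36 ± 0.15 (adjusted p = 0.0448), was higher in 12 of 18 series and passed in 3 of 8 alternative fits, with adjusted p-values up to 0.316.

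Thus 3 of 9 genes were higher at 24 h than at 6 h (24.3% of all genes) and 2 were lower (26.3%), shares near the background. Aqp4 (-1.10 ± 0.50), Slc1a2 (-0.73 ± 0.32), S100b (-0.52 ± 0.48) and Glul (-0.37 ± 0.29) did not pass. Under the replicate block Aqp4, S100b and Slc1a2 also fell, making 5 lower (28.7% of all genes), and the same 3 were higher (27.8%). Without replicate 1, 3 were lower (Gfap, Aqp4 and Slc1a3; 30.3%) and 3 higher (29.9%). Without replicate 2 only Gfap (19.1% of all genes lower) and Nes (14.6% higher) passed, and likewise without replicate 3 (18.2% lower, 12.9% higher); Slc1a3 then had adjusted p-values of 0.0824 and 0.13. Gja1 rested on the cultures in this step, as the within-replicate values above show: it was higher at 24 h in 1 of 6 series of replicate 1 and in 12 of 12 series of replicates 2 and 3, and its change was 1.02 ± 0.13 without replicate 1 and 0.21 without replicate 2 (adjusted p = 0.598).

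Over the whole course, 24 h against 2 h, Nes, Vim and Gja1 were higher and nothing else passed. Vim and Nes were higher in 18 of 18 series, with log2 changes of 1.503 ± 0.15 (adjusted p = 1.89e-11) and 1.73 ± 0.16 (adjusted p = 2.22e-12). Gja1 changed by 1.30 ± 0.21 (adjusted p = 1.21e-06), higher in 15 of 18 series and in 3 of 6 of replicate 1. These 3 of 9 are near the background of 34.2% of all genes higher. The remaining 6 changed by -0.56 ± 0.42 (Gfap) to 0.50 ± 0.29 (Glul). Once the replicate number was a block, S100b (0.62 ± 0.16), Glul (0.53 ± 0.17) and Slc1a3 (0.31 ± 0.14) passed too, making 6 of 9 (35.9% of all genes). Without replicate 1, 7 of 9 were higher (39.2%), among them Slc1a2 by 0.83 ± 0.23, while Gfap (0.23 ± 0.31) and Aqp4 (0.50 ± 0.32) did not pass.

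In cultures with the rMBD3 virus the glial genes stood higher than with the GFP virus. Slc1a2, Gja1, Slc1a3 and Vim rose, and the other 5 genes had positive changes that did not pass. The glutamate transporter gene Slc1a2 ran from 82.9 to 476 CPM in the 18 rMBD3 libraries (median 262) and from 26.7 to 317 in the 18 GFP libraries (median 85.8). The rMBD3 library was above the GFP library of the same medium, time and replicate number in 18 of 18 pairs, and the fitted log2 change was 1.36 ± 0.33 (adjusted p = 0.00525). Slc1a3, the other transporter, ran from 347 to 1889 CPM with rMBD3 (median 852) and from 139 to 1203 with GFP (median 479.8), was higher in 18 of 18 pairs and changed by 0.92 ± 0.29 (adjusted p = 0.0323). Gja1 ran from 103 to 518 CPM (median 216) against 46.05 to 362 (median 126), was higher in 17 of 18 pairs and changed by 1.04 ± 0.21 (adjusted p = 0.00135). Vim ran from 822 to 4461 CPM (median 1949.7) against 481 to 3595 (median 1490.1), was higher in 18 of 18 pairs and changed by 0.70 ± 0.15 (adjusted p = 0.00202). The ranges of the 2 constructs overlapped in each gene, while the pairs within a culture number did not change sign in 3 of these 4.

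These 4 of 9 compare with 6.41% of all genes higher, and 0 of 9 were lower. The changes that missed the threshold were 1.16 ± 0.43 for Gfap (adjusted p = 0.073), 1.08 ± 0.50 for Aqp4 (adjusted p = 0.165), 0.84 ± 0.48 for S100b (adjusted p = 0.27), 0.81 ± 0.29 for Glul (adjusted p = 0.0633) and 0.40 ± 0.16 for Nes (adjusted p = 0.0906). In pairs, Gfap, Aqp4 and Glul were higher in 17 of 18, S100b in 16 and Nes in 13. With the replicate block all 9 genes were higher (9.31% of all genes), with adjusted p-values from 1.23e-05 (Slc1a2) to 0.0395 (Nes), and without replicate 1 all 9 were higher as well (8.09%). With the block nested in time all 9 were higher too (11.5%). Without the low-count filter Slc1a2, Gja1 and Vim passed and the call of Slc1a3 was lost (930 of 24177 genes higher). Without replicate 2 only Gja1 and Vim passed (1.88%). Without replicate 3, 0 of 9 passed in edgeR (1.48% of all genes higher), with 5 members at an unadjusted p under 0.05 and changes of 0.35 (Nes) to 1.30 (Slc1a2); DESeq2 with all libraries called 5 (8.16%). The median change of the 9 genes was 0.92 and that of all genes was -0.03. Summed over the 9 genes, the CPM of rMBD3 over GFP had a mean log2 ratio of 0.82 ± 0.37 (SD, n = 18 pairs). The 18 pairs carry only 3 replicate numbers, and same-numbered libraries deviated together, so they are not 18 independent cultures.

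**Figure D3:**
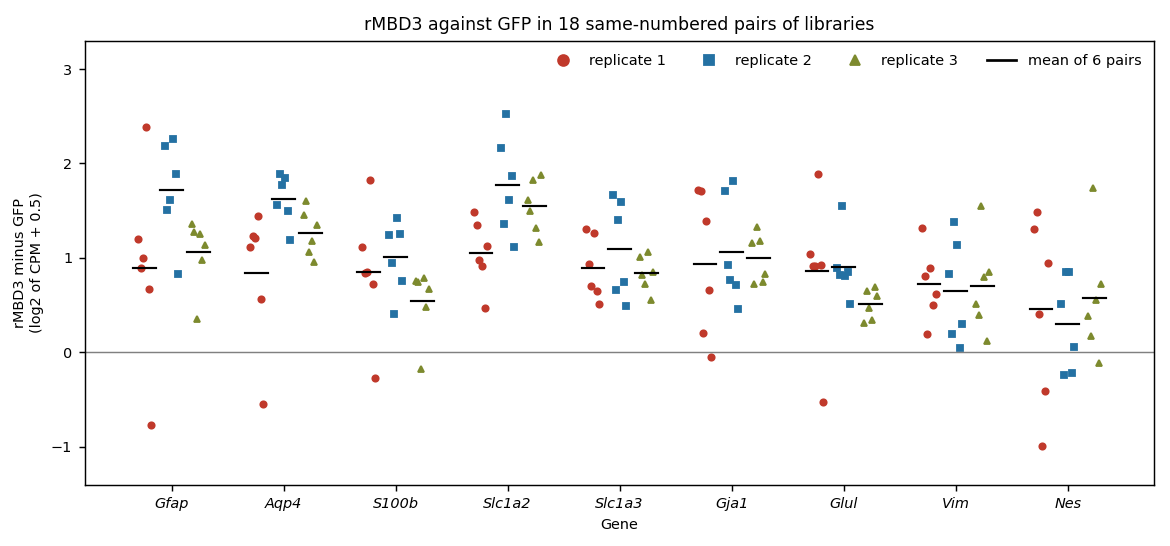
For each gene, the log2(CPM + 0.5) of the rMBD3 library minus that of the GFP library of the same medium, time and replicate number, in 18 pairs (points, coloured by replicate number) with the mean of 6 pairs (bars). Slc1a2, Slc1a3 and Vim lie above 0 in 18 of 18 pairs and Nes in 13; the 1 pair below 0 for Gfap, Aqp4, Gja1 and Glul belongs to replicate 1.

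Split by time, the rMBD3 effect was largest in value at 2 h for 7 of the 9 genes, but single time points hold 6 libraries per construct and few genes passed. At 2 h Gja1 was higher, by 1.52 ± 0.37 (adjusted p = 0.0364, edgeR), the 1 member called against 0.769% of all genes. It ran from 103 to 263 CPM with rMBD3 and from 46.05 to 100.1 with GFP. With the replicate block 6 of 9 were higher at 2 h (Gfap, S100b, Slc1a2, Slc1a3, Gja1 and Vim; 2.01% of all genes), and without replicate 1, 3 were (Slc1a2, Slc1a3 and Gja1; 1.08%). With the block nested in time 7 were higher (those 6 and Aqp4; 3.95%). The Gja1 call was lost without the low-count filter (adjusted p = 0.0594; 0.389% of all genes higher), without replicate 2 (adjusted p = 0.696; 0.00576%) and without replicate 3 (adjusted p = 0.339; 0.00574%), and 0 of 9 passed in each of these. At 6 h 0 of 9 passed in edgeR without a block (0.221% of all genes), with the replicate block (243 of 17172) and in DESeq2 (189 of 14385). Without the block 2 members had an unadjusted p under 0.05 in edgeR. Log2 changes there ran from 0.03 (Nes) to 1.17 (Slc1a2). The block nested in time called 3 at 6 h (Aqp4, Slc1a2 and Gja1), against 2.13% of all genes higher.

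At 24 h 0 of 9 passed in edgeR (0.949% of all genes) and in DESeq2 (590 of 17713 genes). In edgeR 3 members had an unadjusted p under 0.05. With the replicate block Slc1a2 (1.63 ± 0.38), Slc1a3 (0.79 ± 0.25), Vim (0.82 ± 0.26) and Nes (0.78 ± 0.25) were higher, 4 of 9 against 2.64% of all genes. Without replicate 1, 4 were higher too, with Gja1 in the place of Slc1a3 (3.70%). The nested block called 5 (Aqp4, Slc1a2, Slc1a3, Vim and Nes; 5.07%). Slc1a2, with an adjusted p of 0.152 in edgeR without a block, ran from 163 to 339 CPM with rMBD3 and from 44.1 to 135 with GFP. These ranges did not overlap. Nor did those of Gja1 at 2 h, given above, or at 6 h (190 to 279 CPM with rMBD3, 78.5 to 177 with GFP). The share of all genes without such overlap was not computed, so the ranges only describe these libraries. Whether the effect differed between 24 and 2 h was tested directly. It passed for 0 of 9 genes in edgeR (0.0175% of all genes) and in DESeq2 (11 of 16881 genes), with 0 members at an unadjusted p under 0.05. Differences ran from -1.09 ± 1.04 (Gfap) to 0.36 ± 0.39 (Nes), so a change of the effect with time was not detectable at this spread.

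Between GFP and untransfected cultures the calls depended on whether the fit used the pairing of the cultures: none of the 9 genes passed without it, and Glul, Aqp4 and Slc1a3 were lower in the fit paired within time points. Without the block 0 of 9 passed in edgeR (0.297% of all genes) and in DESeq2 (280 of 16881 genes). In edgeR 3 members (Aqp4, Slc1a3 and Glul) had an unadjusted p under 0.05. The changes were -0.84 ± 0.29 for Glul (adjusted p = 0.237), -1.10 ± 0.50 for Aqp4 (adjusted p = 0.439) and -0.64 ± 0.29 for Slc1a3 (adjusted p = 0.422), and the only positive one was 0.10 ± 0.16 for Nes. In pairs, GFP was below untransfected in 15 of 18 for Gfap, Aqp4, S100b, Slc1a3, Glul and Vim. In the blocked fit Glul was lower by 0.64 ± 0.17 on the log2 scale (adjusted p = 0.0417), 1 of 9 against 1.13% of all genes. With the block nested in time 3 of 9 were lower (2.38% of all genes): Aqp4 by 0.90 ± 0.21 (adjusted p = 0.0144), Glul by 0.64 ± 0.17 (adjusted p = 0.0313) and Slc1a3 by 0.51 ± 0.13 (adjusted p = 0.0281). The size differed between cultures and was largest in replicate 1. Mean pair differences in replicates 1, 2 and 3 were -1.22, -0.17 and -0.32 for Glul and -1.21, -0.42 and -0.81 for Aqp4. For Slc1a3 they were -0.92, -0.14 and -0.33. The lowest of the 18 pairs was replicate 1 with magnesium at 2 h, at -2.58 (Glul), -2.55 (Aqp4) and -2.00 (Slc1a3). Without replicate 1, in a fit without a block, 0 of 9 passed (25 of 16998 genes called). The median change of the 9 genes was then -0.27, against -0.53 with all libraries.

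Set against untransfected cultures, rMBD3 cultures had more Slc1a2, Gja1, Nes and Vim; this comparison uses the same rMBD3 libraries as that with GFP. Slc1a2 was higher by 1.11 ± 0.32 (adjusted p = 0.0237) and in 17 of 18 pairs, from a median of 82.0 CPM in untransfected cultures. Gja1 was higher by 0.90 ± 0.21 (adjusted p = 0.00455; 17 of 18 pairs), Nes by 0.51 ± 0.16 (adjusted p = 0.0364; 15 pairs) and Vim by 0.46 ± 0.15 (adjusted p = 0.0479; 14 pairs). These 4 of 9 compare with 4.27% of all genes. Slc1a3 (0.28 ± 0.29), S100b (0.15 ± 0.48), Aqp4 (-0.02 ± 0.50), Glul (-0.03 ± 0.29) and Gfap (0.62 ± 0.42) did not pass. In the fit with the block Gfap and Slc1a3 were higher too, making 6 of 9 (6.07%). Without replicate 1 the count was 4 of 9 with Slc1a3 in the place of Vim (6.73%), and without replicate 2 (1.87%) or without replicate 3 (1.34%) it was 0, where Slc1a2 still changed by 0.82 and 1.00 (adjusted p = 0.314 and 0.298).

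**Figure D4:**
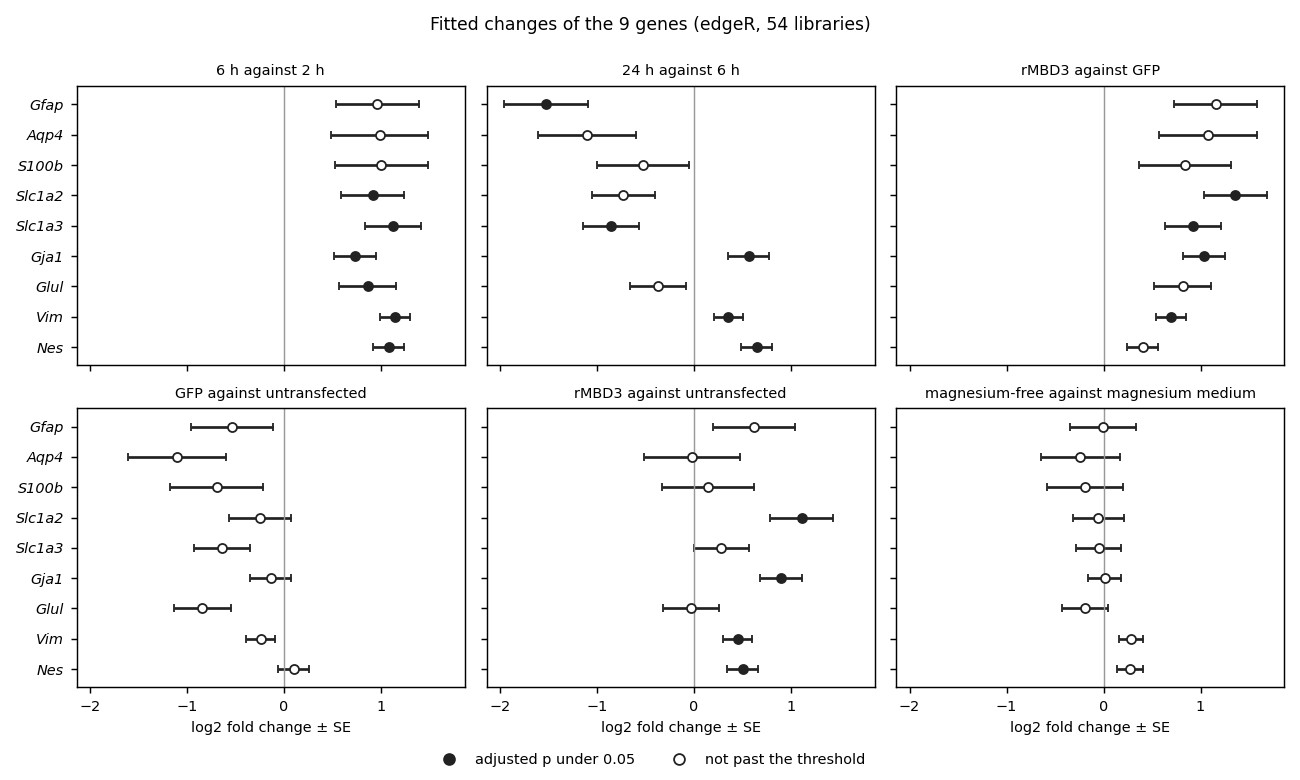
Fitted log2 fold change ± SE of the 9 genes in 6 comparisons (edgeR, 54 libraries, no replicate block); filled points have an adjusted p under 0.05. All 9 changes are above 0 for 6 h against 2 h and for rMBD3 against GFP, and none is filled for GFP against untransfected or for the medium.

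Taking magnesium out of the medium was not followed by a detectable change of these genes. Over all constructs and times 0 of 9 passed, and 0% of all genes did in the edgeR fit without a block (1565 of 17172 had an unadjusted p under 0.05). Other fits called some genes but 0 of the 9: DESeq2 called 0.0466% of all genes, and the block nested in time 2.50% (429 genes, 345 of them lower without magnesium). Vim (0.28 ± 0.12, adjusted p = 0.531) and Nes (0.27 ± 0.13, adjusted p = 0.54) were the 2 members with an unadjusted p under 0.05, both higher without magnesium. The other 7 changed by -0.24 to 0.01. At 24 h alone 0 of 9 passed, with 0% of all genes called in that fit and 0 members at an unadjusted p under 0.05. At this time too 0 of 9 passed in the fits that called genes: DESeq2 (0.568% of all genes), the replicate block (36 genes), the block nested in time (6.91%) and the fit without replicate 1 (176 genes). In the unblocked fit changes ran from -0.40 ± 0.67 (S100b) to 0.36 ± 0.22 (Nes). The rMBD3 effect did not differ detectably between the media at 24 h. In edgeR 0 of 9 genes and 0% of all genes passed, with 0 members at an unadjusted p under 0.05. In DESeq2 0 of 9 passed (2 of 21458 genes). The differences had SE of 0.52 to 1.74 in edgeR.

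Put side by side, the factors of the design weighed differently on the genes. In the variance of log2 CPM over the 54 libraries, the replicate number accounted for 71.1% in S100b, 56.5% in Aqp4, 45.5% in Glul, 42.3% in Gfap and 40.7% in Slc1a3. Time accounted for 63.9% in Nes and 60.4% in Vim. In Slc1a2 the construct accounted for 35.1%, more than the replicate number (28.2%), and in Gja1 time accounted for 33.6% and the construct for 25.1%. The medium accounted for at most 3.32% in any gene (Nes). These shares are descriptions of these libraries.

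Correlations are given for 6 genes, picked after seeing the values, and for the other 3 beside them, without a test. Gfap, Aqp4, S100b, Slc1a2, Slc1a3 and Glul were positively correlated: over the 15 pairs among them Pearson's r of log2 CPM ran from 0.50 to 0.96 within the 18 libraries of replicate 1, from 0.81 to 0.94 within replicate 2 and from 0.55 to 0.93 within replicate 3. Spearman's rho ran from 0.48 to 0.94, 0.78 to 0.94 and 0.42 to 0.93. Vim and Nes followed each other at r of 0.80, 0.97 and 0.96 (rho 0.71, 0.89 and 0.97). With the 6 genes, Vim had r of -0.07 to 0.24 in replicate 1, 0.58 to 0.83 in replicate 2 and 0.23 to 0.74 in replicate 3, and Nes of -0.39 to 0.01, 0.46 to 0.73 and 0.05 to 0.63. Vim and Nes thus stood apart from the 6 in replicate 1, while in replicates 2 and 3 the ranges overlapped: Glul with Vim, at 0.83 in replicate 2, was above the lowest pair among the 6. Gja1 went with Nes at r of 0.91 and 0.90 in replicates 2 and 3, but at -0.06 in replicate 1, where its r with the 6 genes was 0.53 to 0.85. The points share constructs, times and culture, so these values describe the libraries and not a link between the genes.

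**Figure D5:**
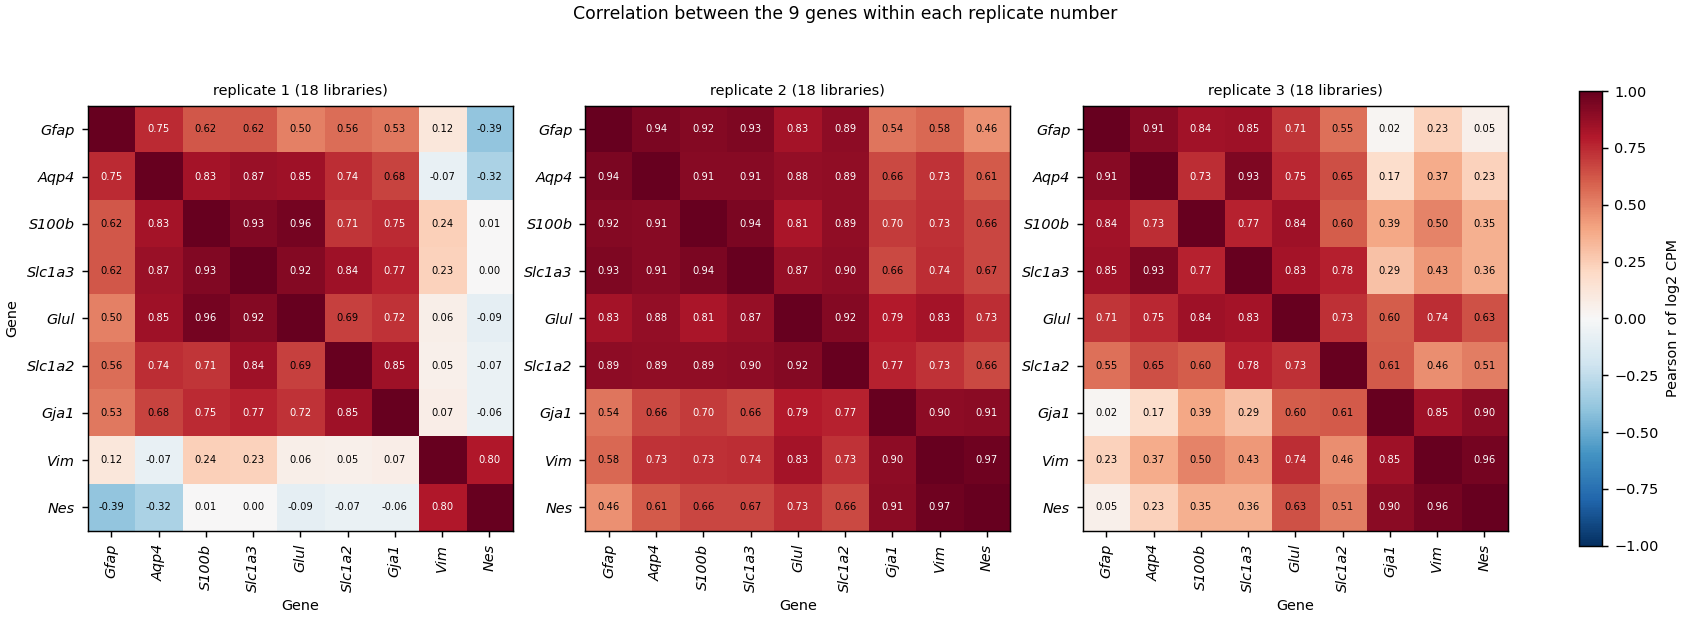
Pearson's r of log2 CPM between each 2 of the 9 genes over the 18 libraries of replicate 1, 2 and 3 (1 panel each; colour scale from -1 to 1). The block of 6 genes at the upper left is positive in all 3 panels (0.50 to 0.96), and r of Gja1 with Vim is 0.07, 0.90 and 0.85 in replicates 1, 2 and 3.

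By the rule that ranks genes on Pearson's r with the mean standardized log2 CPM of the 9 members over the 54 libraries, the nearest of 12640 other genes were ENSRNOG00000016957 (chromosome 9, 74415546 to 74442937) at 0.946, ENSRNOG00000016733 (chromosome 2, 175675005 to 175680036) at 0.929 and ENSRNOG00000025639 (chromosome 17, 77353805 to 77440353) at 0.928. The first ran from 64.9 to 1229 CPM, with medians of 603, 322 and 318 in replicates 1, 2 and 3. The members themselves had r with that mean between 0.368 (Nes) and 0.928 (Slc1a3). The files give no symbols for these 3 genes, and none is named here.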

How the data were processed

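The authors deposited raw counts of read pairs per gene. Per the file headers, they were made with featureCounts 2.0.0 on an mRatBN7.2 annotation (Ensembl release 105), with strand setting 2, a minimum mapping quality of 3 and primary alignments only. The submitters' processing notes also name STAR, Trim Galore, Salmon, SAMtools and DESeq2. The labels' protocol names an older rat build, and coordinates here are those in the count file. A deposited log2 table was not used.

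Counts of all 54 libraries were fitted with edgeR 4.0.16 in R 4.3.3: TMM factors, filterByExpr (minimum count 10, minimum total 15), 1 mean per group, robust quasi-likelihood fit and Benjamini-Hochberg adjustment over 17172 genes, with a threshold of 0.05. Of 30560 genes, 24177 had a count. Total counts of 14448927 to 39691105 set a floor of 3 counts, for counting error only. The biological coefficient of variation was 39.7%, and 31.7% with the replicate number as a block. Alternatives were that block, the block within time point, only the compared libraries, RLE factors, no low-count filter, DESeq2 1.42.0 (minimum total 10) and leaving out each replicate number.

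The labels number the cell culture. Same-numbered libraries deviated together: the mean correlation of their deviations from the group means was 0.258 over 459 pairs, and 0.385 over the 135 pairs of 1 time point. For different numbers it was -0.119. Deviations cancel within a group, so this negative value largely follows from the positive one and is no separate comparison. For same-numbered rMBD3 and GFP libraries of 1 medium and time the mean correlation was 0.524, 0.445 and 0.258 in replicates 1, 2 and 3, with a lowest value of 0.182. With untransfected libraries it was 0.560, 0.487 and 0.218 for GFP and 0.437, 0.388 and 0.132 for rMBD3. The lowest values there were -0.125 and -0.175, both in replicate 3, where the pairing was weak. Over all same-numbered pairs the lowest value was -0.306. The numbers were taken to pair the libraries in the counts of pairs and in the fits with a block. The fit without a block, whose calls for time, construct and medium are given first, did not use this pairing. No 2 libraries of a group were copies, since the chi-square per gene was at least 9.76 in all 54 within-group pairs.

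The named genes are all 9 members, and the 3 other genes whose log2 CPM, among genes with a mean log2 CPM of at least 1, correlated best with the members' mean profile. The members and lists were chosen with earlier results of these data known. Of the 30560 identifiers, 0 paired with the symbol table, so the member symbols are those given with the identifiers, and further marker lists were not analysed here. The edgeR fit without a block was tried first on simulated counts drawn with no difference between replicate numbers. That trial cannot say how the fit behaves where the replicate numbers differ, as they do here. No column was left unmapped.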

Additional observations from a re-analysis of the deposited data

Results flagged for a closer look

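For Gja1, the difference between replicate 1 and the mean of replicates 2 and 3 changed with time: the change from 2 to 24 h was -2.24 on the log2 scale (SE 0.27, adjusted p = 1.01e-07, edgeR with the replicate number nested in time). This was marked because the same contrast differed between 2 time points by a direct test, chosen after seeing the data. Replicate 1 was the highest library in 6 of 6 groups at 2 h and the lowest in 6 of 6 at 24 h. In the same test 34.8% of all genes passed, so Gja1 is 1 of many. No cause was tested.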

How the results depend on the processing

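All counts below are of the 9 genes. With the replicate block, 8 instead of 5 passed for 24 h against 6 h, 6 instead of 3 for 24 h against 2 h, 9 instead of 4 for rMBD3 against GFP, 6 instead of 1 for that comparison at 2 h, 4 instead of 0 at 24 h, and 1 instead of 0 for GFP against untransfected. With the block within time point the counts were 9 for rMBD3 against GFP, 7 at 2 h, 3 at 6 h, 5 at 24 h and 3 for GFP against untransfected, where that fit also called more of all genes (4083, 1035, 533, 2174 and 501 against 1886, 150, 38, 163 and 51 in either direction). Leaving out 1 replicate number gave 3 to 9 for 6 h against 2 h, 2 to 6 for 24 h against 6 h, 3 to 7 for 24 h against 2 h, 0 to 9 for rMBD3 against GFP, 0 to 3 for it at 2 h, 0 to 4 at 24 h and 0 to 4 for rMBD3 against untransfected. Without replicate 2, 4805 of 17350 genes were higher at 24 h than at 2 h, and 4467 of 17436 without replicate 3, with 3 members each time. For rMBD3 against GFP at 24 h, 2 of 17350 and 1 of 17436 genes were higher in those fits, with 0 members. Without the low-count filter, 0 passed for rMBD3 against GFP at 2 h (0.389% of all genes higher) and 2 for rMBD3 against untransfected (652 of 24177 genes higher). DESeq2 called 2 for rMBD3 against GFP at 2 h (317 of 13138 genes higher). Of the counts under alternatives, 93 stayed within 1.5 times and 28 did not. The 93 include counts of 0 in both fits, which could hardly move. Every alternative for the medium and for the differences of the rMBD3 effect was of that kind. They also include the tests between replicate numbers, so the 93 overstate how steady the time and construct calls were. Some small changes turned sign. For 24 h against 2 h, leaving out 1 replicate number gave -0.85 to 0.23 for Gfap, -0.29 to 0.50 for Aqp4 and -0.10 to 0.83 for Slc1a2, and the replicate block gave 0.20 for Aqp4. For rMBD3 against untransfected, Aqp4 was 0.45 with the block, 0.39 with the block within time point and -0.21 to 0.85 with 1 number left out, and Glul was 0.13, 0.13 and -0.26 to 0.47. For GFP against untransfected with 1 number left out, Slc1a2 was -0.41 to 0.29 and Gja1 -0.25 to 0.16. The upper ends were those without replicate 1. The difference of replicate 1 was -1.15 for Gja1 within 24 h, and -0.043 and -0.26 for Vim within 6 and 24 h. The cause was not tested. At these depths counting error is small beside the spread between libraries of a group. Culture and batch cannot be told apart in that spread.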

Other observations

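In 1 untransfected library, replicate 1 with magnesium at 2 h, Aqp4 stood at the opposite end from Vim and Nes. Aqp4 was at 304.6 CPM against 5.89 and 19.9 in replicates 2 and 3 of that group, and it was the highest Aqp4 value of all 54 libraries. Vim was at 330.2 CPM against 852 and 973, and Nes at 225 against 644 and 741, both the lowest of all 54. The GFP library of replicate 2 without magnesium at 2 h had the lowest Gfap (88.0 CPM), Aqp4 (2.87), S100b (25.1), Slc1a2 (26.7) and Slc1a3 (139) of all libraries.

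In 1 pair, replicate 1 without magnesium at 24 h, the rMBD3 library was below the GFP library in 5 of the 9 genes. Gfap was at 356 against 609 CPM, Aqp4 at 42.6 against 62.6, S100b at 323 against 390.04, Glul at 316 against 454 and Gja1 at 138 against 143. The same rMBD3 library had the highest Nes of all 54, at 3796 CPM.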
